A study of Mus musculus with 14 samples.

Results

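The oncostatin M and interleukin-6 (IL-6) cytokine family was followed through 8 genes of the 18193 that the platform annotation names: the ligands Osm, Lif, Il6 and Il11 and the receptor chains Osmr, Lifr, Il6ra and Il6st. Its members were all probe sets that the annotation gives to 1 of these genes alone, which were 17 of the 45037 tested. Osm, Il6 and Il11 had 1 probe set each, Lif and Il6ra had 2 each, Osmr and Lifr had 3 each and Il6st had 4. No measured value entered the rule, but the genes were chosen with earlier results of these data known. The study had already named Osm as a cytokine gene that EPO induced in stage E1 cells.

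Cytokines of this family signal through gp130, the receptor chain encoded by Il6st, which is paired with a ligand-specific partner such as the oncostatin M receptor chain, the LIF receptor or the IL-6 receptor. Receptor binding activates Janus kinases and then mainly STAT3, and SOCS proteins induced by the same signal limit it. Erythropoietin (EPO) uses a related type I cytokine receptor that works through Jak2 and STAT5, and oncostatin M, described mostly as a product of leukocytes, is known to act on hepatocytes, stromal cells and hematopoietic progenitors.

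RNA came from marrow of wild-type C57Bl/6 female mice aged 8 to 12 weeks (femurs and tibiae), expanded in SP34ex, a serum-free erythroid medium that itself held EPO, stem cell factor and dexamethasone. The 4 groups were stage E1 with EPO (4 arrays), stage E1 without EPO (4 arrays), stage E2 with EPO (3 arrays) and stage E2 without EPO (3 arrays). Stage E1 cells are CFUe-like progenitors, taken as lineage-negative, Kit-positive and CD71-positive cells at day 3 in the deposited record (day 3.5 in the methods of the study). Stage E2 cells are proerythroblasts, taken at day 3.5 as lineage-negative cells depleted of Kit and selected for CD71. All of them then went 5.5 h without hematopoietic cytokines, and the EPO groups received EPO at 4 U/mL for 90 min while the others received carrier. The record calls the arrays biological replicates without naming animals, and whether marrow was pooled was not stated.

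The deposited values are GC-RMA values on a log2 scale from which 1 constant per probe set has been subtracted, so they can be compared between arrays but give no level. A transcript that is absent and one that stays at the same level on all arrays therefore cannot be told apart, and in RNA from mixed cells neither can fewer cells of a type and less RNA per cell. Array medians lay between -0.023 and 0.031. The SD over all probe sets was 0.633 to 0.736 on E1 arrays and 0.259 to 0.295 on E2 arrays. Of 10 measured erythroid markers, 5 were higher and 2 lower in E2 than in E1 cells with EPO, with a median difference of 0.58. Of all 18193 genes, 13.2% were higher and 15% lower in this comparison. Slc4a1 (the erythrocyte anion exchanger) marked the upper end of the markers at 5.69. Kit (the stem cell factor receptor), of which E2 cells were depleted, marked the lower end at -3.70. Of the granule genes of neutrophil precursors, which are not genes of the erythroid lineage, 7 of 9 were lower in E2 than in E1 cells in both conditions, and their mean value was 5.72 to 5.98 on E1 EPO arrays and 5.80 to 6.15 on E1 no EPO arrays, against -0.064 to -0.024 on E2 EPO arrays and -0.049 to -0.045 on E2 no EPO arrays.

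The comparison of EPO with no EPO within stage E1 asks which of the family's transcripts respond to the receptor of EPO in CFUe-like cells. Osm, which encodes oncostatin M, was the member that responded. Its probe set 1438767_at read 2.40, 2.18, 2.43 and 2.28 on the E1 EPO arrays, against -2.18, -3.34, -2.66 and -3.03 on the E1 no EPO arrays. The 4 EPO arrays lay close together and far above the highest no EPO array, and the no EPO arrays spread more widely. Osm averaged 2.32 ± 0.12 with EPO and -2.80 ± 0.50 without (SD, n = 4 each). The difference of 5.12 on the log2 scale (SE 0.24, 95% confidence interval 4.55 to 5.70) is a 34.9-fold rise (23.4 to 52.0), with an adjusted p of 0.000788 in limma's moderated test over all 45037 probe sets. An exact two-sided permutation test of the 8 Osm values gave p = 0.0286, the smallest that 70 regroupings allow. With the E1 arrays read as 4 same-numbered pairs, whose differences were 4.57 to 5.52, exact sign flips gave p = 0.125, the smallest that 16 sign patterns allow, so that test cannot reach 0.05. Of all probe sets only that of Cish, a STAT5 target gene, rose more in E1.

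In stage E2 the same comparison gave 3.07, 2.73 and 2.95 on the EPO arrays, against -2.48, -2.49 and -2.46 on the no EPO arrays. The groups were again far apart, and here the 3 no EPO arrays were almost equal. Osm averaged 2.92 ± 0.17 with EPO and -2.48 ± 0.015 without (SD, n = 3 each). The rise of 5.39 (SE 0.092, 95% confidence interval 5.15 to 5.63) is 42.0-fold (35.6 to 49.6), with a limma adjusted p of 0.000281. Whether the no EPO values of Osm in either stage lay at the floor of the array's range cannot be read from centred values. If they did, the folds and their intervals need not measure the change of the transcript. With 3 arrays against 3 the exact permutation test cannot go below 0.1, and it gave p = 0.1. Only a probe set of Socs3, which encodes a SOCS inhibitor of gp130 signalling, rose more in E2. Over the 14 arrays the SD of Osm was 2.74, which 32 probe sets exceeded. With 1 probe set for Osm on the array, no second one could be compared with it. Apart from the arrays, the study assayed cytokine genes of CFUe-like cells by quantitative RT-PCR and lists a primer pair for Osm. The study states that every factor so assayed except Pias3 bore out its array result.

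**Figure D1:**
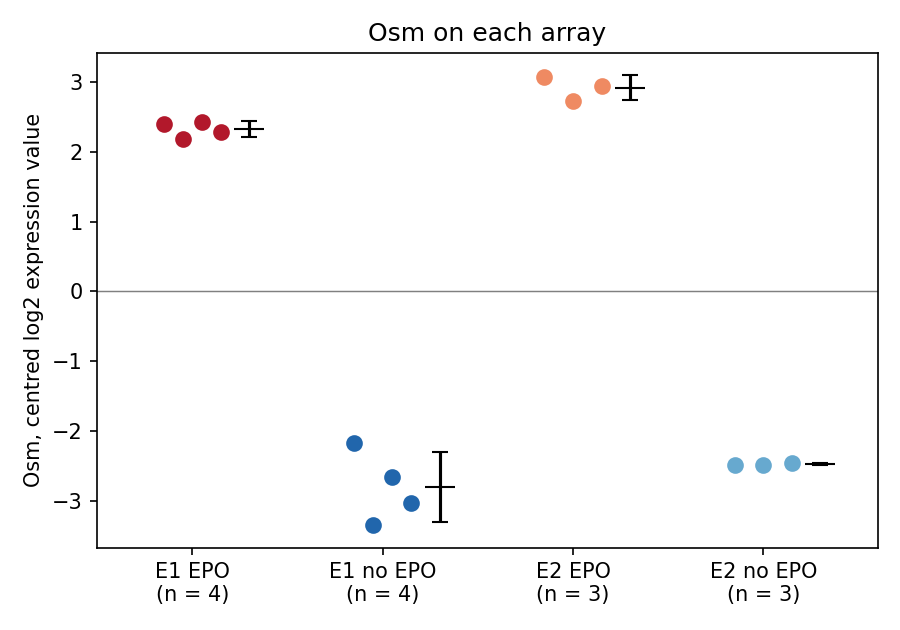
Centred log2 expression value of Osm (y axis) on each array (points) by group (x axis, n arrays in each); the bar beside each group is its mean and SD. The EPO arrays lie between 2.18 and 3.07 and the no EPO arrays between -3.34 and -2.18.

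None of the 16 other probe sets passed the test in either stage, so the count of members that rose was 1 of 17 in E1, where 0.804% of all probe sets rose and 0.36% fell, and 1 of 17 in E2, where 2.54% rose and 2.08% fell. These background counts depend on single arrays: without 1 array they were 150 to 365 rises (362 with all) and 55 to 156 falls (162) in E1, and 504 to 843 rises (1146) and 330 to 546 falls (935) in E2. In limma, none of the 16 had an unadjusted p under 0.05 in either stage, and the plain test of the study's methods, made two-sided and without adjustment, gave 0 in each stage. One-tailed in the direction of each change, as the methods have it, that test gave 0 in E1 and 2 in E2 (Lif 1421207_at and Il6, each changed by less than 0.01). Their changes with EPO ran from -0.17 to 0.41 in E1 and from -0.062 to 0.17 in E2, with a median absolute change of 0.021 and 0.011 against 0.048 and 0.031 over all probe sets. The 95% confidence intervals of the 16 changes all lay within 1 log2 unit of 0 in E1, 13 of them within 0.5, and in E2 all 16 lay within 0.5. For a probe set at the floor of the array's range such an interval sets no limit on the change of its transcript, and which of them are at the floor cannot be read from centred values. Of the 16, 13 varied less over the 14 arrays than the median probe set (SD 0.137), and 6 kept all 14 values within 0.1 of each other, as 22.2% of all probe sets did.

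**Figure D2:**
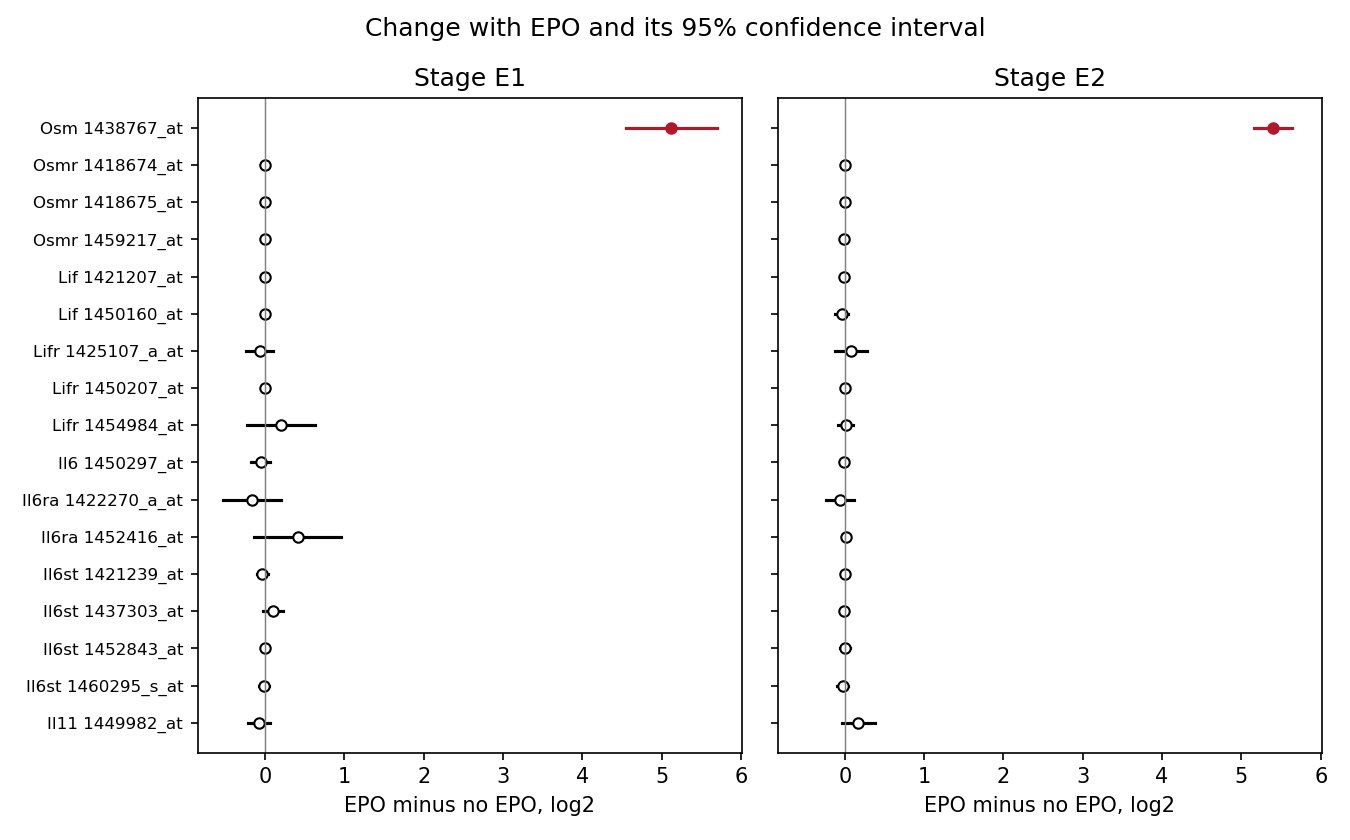
Change with EPO (EPO minus no EPO, log2, x axis) of the 17 member probe sets (y axis) in stage E1 and stage E2; lines are 95% confidence intervals and filled points passed the test. Osm stands at 5.12 in E1 and 5.39 in E2, and the intervals of the 16 others all include 0.

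Among the other ligands, Lif, which encodes leukemia inhibitory factor, had values near 0 on every array. Its probe set 1421207_at read 0.021, 0.00082, 0.00073 and -0.0021 on E1 EPO arrays, against 0.012, -0.0046, -0.0065 and -0.00073 on E1 no EPO arrays, with a change of 0.0053 (SE 0.013, limma adjusted p = 1). On E2 arrays it read -0.013, -0.017 and -0.018 with EPO, against -0.0063, -0.012 and -0.011 without, and these groups stood apart by less than 0.01 (change -0.0063, SE 0.0068, adjusted p = 0.744). Its probe set 1450160_at changed by -0.0062 in E1 and -0.040 in E2, where E2 no EPO replicate 1 stood at 0.088 and the other 5 E2 arrays lay between -0.024 and -0.012. Both Lif probe sets together spanned at most 0.111 over the 14 arrays, against 6.42 for Osm.

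Il6, which encodes IL-6 itself, read 0.025, -0.0055, -0.0045 and -0.0083 on E1 EPO arrays, against 0.030, 0.0045, -0.017 and 0.21 on E1 no EPO arrays. Apart from the last of these the E1 values overlapped closely, and the change was -0.056 (SE 0.051, limma adjusted p = 1). In E2 it read -0.028, -0.032 and -0.034 with EPO, against -0.025, -0.027 and -0.016 without, a change of -0.0090 (adjusted p = 0.688). Il11, the gene of the gp130 ligand interleukin-11, read 0.21, -0.050 and 0.16 on E2 EPO arrays, against -0.13, -0.037 and -0.023 on E2 no EPO arrays. EPO replicate 2 of E2 fell inside the range of the no EPO arrays, and the change of 0.17 (SE 0.079, 95% confidence interval -0.037 to 0.38) had an adjusted p of 0.414. In E1 Il11 changed by -0.080 (SE 0.059). The 2 responses of Il11 differed by 0.25 (SE 0.099) with an unadjusted p of 0.029, which was 0.567 after adjustment.

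The receptor chains gave the same picture of small and scattered values. The 3 probe sets of Osmr, the chain that pairs with gp130 to bind oncostatin M, spanned 0.0537 to 0.0934 over the 14 arrays, and of these 1459217_at, the widest, read 0.021, -0.0033, 0.0050 and -0.011 on E1 EPO arrays, against 0.053, -0.0040, -0.018 and -0.016 on E1 no EPO arrays. In E2 it read -0.028, -0.023 and -0.040 with EPO, against -0.032, -0.025 and 0.0033 without. The changes of the 3 with EPO lay between -0.0051 and 0.00032 in E1 and between -0.012 and 0.0016 in E2. The widest 95% confidence interval among these 6 values ran from -0.049 to 0.047. Thus the transcript of the ligand rose in both stages while the probe sets of its specific receptor chain gave differences close to 0, with values that overlapped between EPO and no EPO arrays in both stages.

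Il6st, the gene of gp130, had 4 probe sets with changes of -0.033 to 0.10 in E1 and -0.029 to 0.0010 in E2. Probe set 1437303_at read 0.028, -0.0016, 0.24 and 0.12 on E1 EPO arrays, against 0.013, -0.021, -0.029 and 0.017 on E1 no EPO arrays. EPO replicates 1, 3 and 4 lay above all no EPO arrays and EPO replicate 2 within their range (change 0.10, SE 0.053, limma adjusted p = 0.763). Probe set 1460295_s_at, whose suffix in the platform's naming marks probes shared by several transcripts, changed by -0.0089 in E1 and -0.029 in E2.

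Il6ra, the gene of the IL-6 binding chain, had the largest change among the 16. Probe set 1452416_at read 0.0016, 0.35, 1.10 and 0.16 on E1 EPO arrays, against 0.012, -0.0053, -0.027 and -0.0031 on E1 no EPO arrays. Of the EPO arrays 3 lay above every no EPO array, but EPO replicate 1 did not, and the values with EPO spread over more than 1 log2 unit. The change of 0.41 (SE 0.23, 95% confidence interval -0.14 to 0.96) did not pass (limma adjusted p = 0.818). In E2 it read -0.011, -0.046 and -0.021 with EPO, against -0.052, -0.047 and -0.029 without, which overlapped (change 0.017, SE 0.013). The second Il6ra probe set, 1422270_a_at, changed by -0.17 (SE 0.16) in E1, where no EPO replicate 2 alone stood at 0.66 and the other 7 E1 arrays lay between -0.015 and 0.031. The 2 probe sets of Il6ra thus differed in sign in E1, and neither change passed.

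Lifr, the LIF receptor chain that in the mouse also serves other ligands of the family, had 3 probe sets with changes of -0.069, 0.00050 and 0.20 in E1 and 0.080, -0.0019 and 0.012 in E2. The largest of these came from 1454984_at, which read 0.77, -0.019, 0.089 and -0.023 on E1 EPO arrays, against 0.045, -0.0057, -0.025 and 0.0048 on E1 no EPO arrays. It was high on EPO replicate 1 alone, and its change of 0.20 (SE 0.18) had a limma adjusted p of 1. Probe set 1425107_a_at was likewise high on single arrays, at 0.28 on E1 no EPO replicate 2 and 0.19 on E2 EPO replicate 2, and otherwise lay between -0.074 and 0.022.

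**Figure D3:**
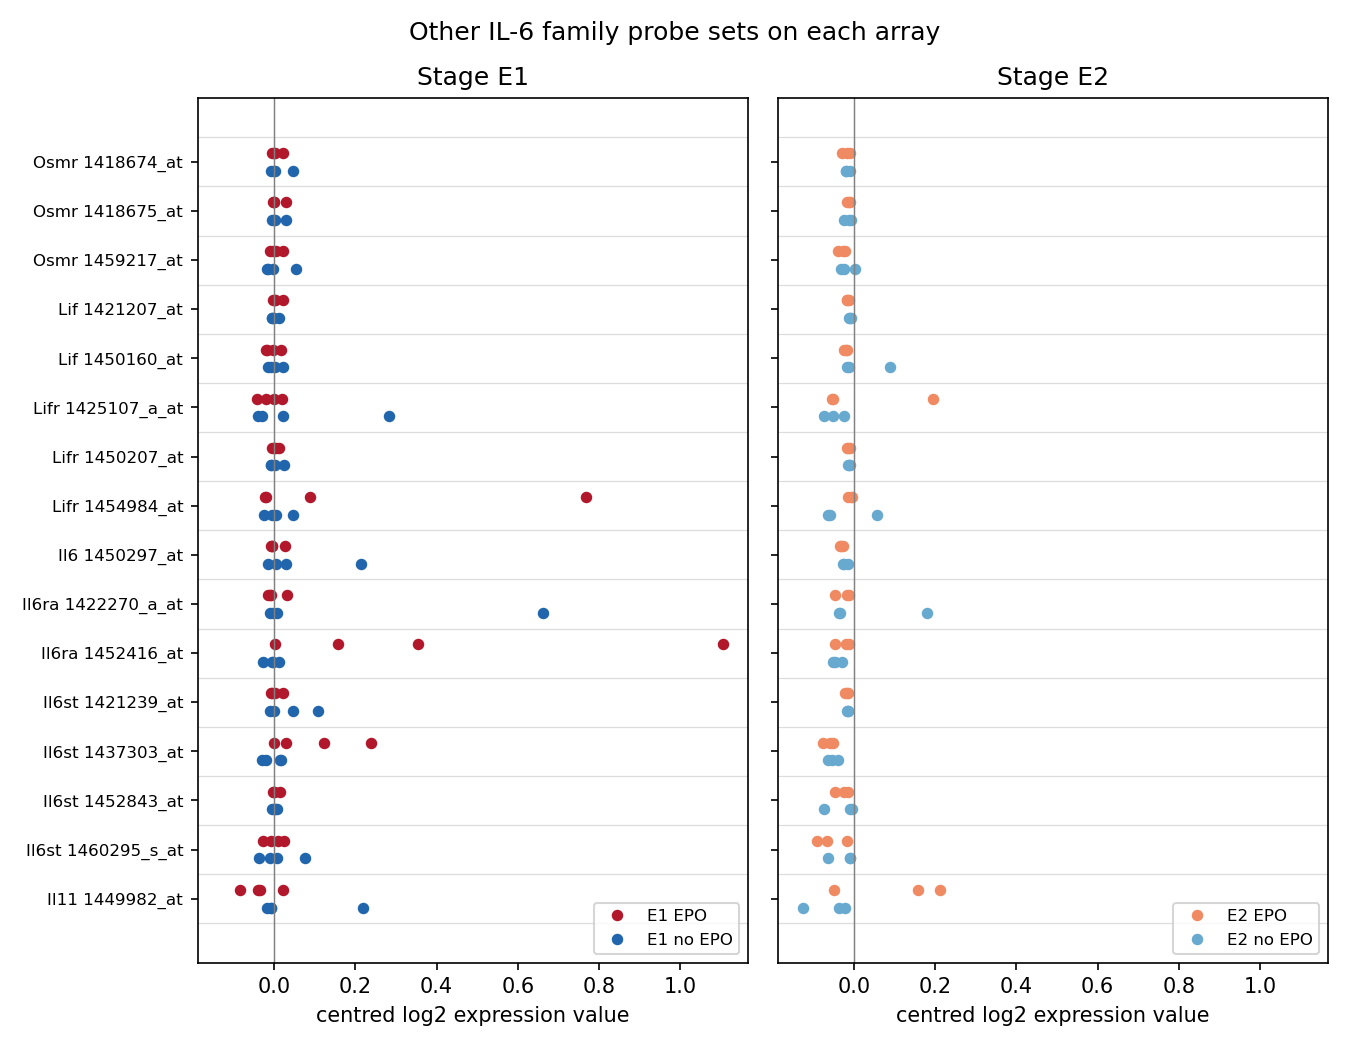
Centred log2 expression values (x axis) of the 16 other member probe sets (y axis) on each array (points) in stage E1 (4 EPO and 4 no EPO arrays) and stage E2 (3 and 3). Most points lie near 0, and the farthest is 1.10, for Il6ra 1452416_at on E1 EPO replicate 3.

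Whether the response of Osm differed between the stages was tested by the interaction term over all 14 arrays. The E2 response exceeded the E1 response by 0.27 (SE 0.30, 95% confidence interval -0.40 to 0.94), which did not pass (limma adjusted p = 1), and without 1 array it was 0.059 (without E1 no EPO replicate 1) to 0.45. None of the 17 member probe sets passed this test, in which 0.18% of all probe sets were higher and 0.235% lower. The interval allows an E2 response from 0.757 times to 1.92 times the E1 response in fold terms, provided that the no EPO values lie above the floor. Quantile normalization across all 14 arrays, which stretches the narrower E2 values, gave Osm rises of 9.45 in E2 and 3.71 in E1 and a difference of 5.73 that passed (adjusted p = 4.25e-06).

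Compared across maturation, Osm with EPO was 0.60 higher in E2 than in E1 cells (SE 0.22, 95% confidence interval 0.12 to 1.07). The 3 E2 EPO arrays lay above all 4 E1 EPO arrays, but these groups were also free of overlap in 26781 of all 45037 probe sets. The exact permutation test of these 7 Osm values gave p = 0.0286, the smallest that 35 regroupings allow. Over all probe sets the limma adjusted p was 0.0724. This difference passed with array weights, with the more variable 50% of probe sets and without E1 no EPO replicate 1 or 2. Those E1 no EPO arrays are not in the groups compared, and without either the difference stayed at 0.60. They enter only through the estimate of spread that all 4 groups share. Quantile normalization, which stretches the E2 values, gave 2.73. Without EPO, Osm was 0.33 higher in E2 than in E1 cells (SE 0.22, 95% confidence interval -0.15 to 0.80, adjusted p = 0.270), and the E2 values lay within the range of the E1 values (exact permutation p = 0.314). It passed with array weights (0.48) and without E1 no EPO replicate 1 (0.54), and quantile normalization reversed it (-3.0, adjusted p = 1.73e-06). The neutrophil granule genes, which differ between the stages by a median of -7.22 with EPO and -7.28 without, and the megakaryocyte markers, of which 6 of 6 with EPO and 5 of 6 without were higher in E2, move along the same contrast. Their part in the Osm values was not tested.

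For EPO against no EPO in limma, 0 of 9 neutrophil granule, 0 of 8 macrophage, 0 of 6 mast cell and basophil, 0 of 8 lymphoid, 0 of 6 megakaryocyte and 0 of 7 stromal markers passed in either stage. An unadjusted p under 0.05 was found in E1 for 1 neutrophil granule, 1 megakaryocyte and 1 stromal marker, and in E2 for 2 macrophage, 1 mast cell and 3 megakaryocyte markers. On E1 arrays the mean macrophage marker value was 0.19 to 0.48 with EPO and 0.37 to 0.66 without, and on E2 arrays it was -0.095 to -0.079 with EPO and -0.078 to -0.067 without. The part of these cells in the Osm rise was not tested.

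Of the 16 other probe sets, 1 passed a comparison of stages. Il6st 1437303_at read -0.052, -0.059 and -0.077 on E2 EPO arrays, against 0.028, -0.0016, 0.24 and 0.12 on E1 EPO arrays, a difference of -0.16 (SE 0.046, limma adjusted p = 0.0275). The groups did not overlap, which was so for 10 of these 16 probe sets and for 26781 of all 45037. E1 EPO replicates 3 and 4 lay farthest from the E2 arrays. The call was lost under quantile normalization (adjusted p = 0.0633), with each array centred on its median (0.0588), with the replicate number as a block (0.0719) and without E1 EPO replicate 4 (0.0616) or E2 EPO replicate 1, 2 or 3 (0.0676, 0.0716 and 0.0908). That block matched equal numbers across the stages, although the labels do not say what the numbers mark. Against it, 10.3% of all probe sets were higher and 12% lower in E2 with EPO. Without EPO none of the 17 passed, where 10.1% of all probe sets were higher and 10.8% lower. Of the 16 differences between stages, 2 were above 0 with EPO and 1 without, beside a median over all probe sets of -0.027 in both.

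Around the 8 members, 6 lists held 46 genes of the pathway, of which 41 had a value. The lists were chosen with earlier results of these data known, so their shares are set beside those of all genes as a description alone. Where a gene had more than 1 probe set, the most variable over the 14 arrays stood for it, and this choice is not independent of its change. In E1, 6 of the 41 rose and none fell, where 1.13% of all 18193 genes rose and 0.396% fell, and the list median was 0.14 against -0.0048 over all genes. In E2, 11 of the 41 rose and none fell, where 3.19% of genes rose and 2.42% fell, with medians of -0.0032 and -0.0054. Because E1 arrays that share a replicate number also shared part of their deviations, the fit with that number as a block is given beside these counts. It left 1 of the 6 rises, that of Cish, and 44 of 362 rises over all probe sets, while Osm remained past the test (adjusted p = 0.0305).

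The inhibitors of the pathway held the largest changes, with 3 of 8 measured genes up in each stage. Cish, whose SH2 protein dampens STAT5 signalling, read -0.22 to 0.025 on E1 EPO arrays, against -5.83 to -5.11 on E1 no EPO arrays, a rise of 5.35 (SE 0.15, limma adjusted p = 7.44e-05), and 2.81 to 2.97 on E2 EPO arrays, against -1.24 to -1.05 on E2 no EPO arrays, a rise of 4.02 (SE 0.066). Socs3, the feedback inhibitor that binds gp130, read -0.18 to 0.71 on E1 EPO arrays, against -2.44 to -2.30 on E1 no EPO arrays, a rise of 2.70 (SE 0.18, adjusted p = 0.00265; 0.0538 with the block). In E2 it read 2.99 to 3.40 with EPO, against -2.45 to -2.17 without, a rise of 5.61 (SE 0.15). Of the 3 Socs3 probe sets, 1 passed in E1 and 3 passed in E2. The Socs3 values here, including the difference between the stages, are those of the 1 that passed in E1. The stages stood in opposite order for these 2 genes: the E2 response exceeded the E1 response by 2.91 for Socs3 (adjusted p = 0.000674) and fell short of it by -1.33 for Cish (adjusted p = 0.0152). Socs2 rose by 3.84 in E1 (adjusted p = 0.00435; 0.0682 with the block) and 3.97 in E2, and of its 6 probe sets 2 passed in E1 and 3 in E2. Pias3, a protein inhibitor of STAT3, changed by -1.11 (SE 0.22) in E1 without passing (adjusted p = 0.0905). The study names Pias3 as the only assayed factor that its quantitative RT-PCR did not bear out.

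Among the kinases and STATs, none of 6 measured genes passed in E1 (limma, 3 with an unadjusted p under 0.05) and 1 passed in E2. Stat3, the main transcription factor downstream of gp130, changed by 0.14 (SE 0.15) in E1 and rose by 0.84 in E2 (SE 0.14, limma adjusted p = 0.0463). Of the 4 Stat3 probe sets, 1 passed in E2. The E2 call was lost without any 1 of 5 of the 6 arrays (adjusted p up to 0.137), and the 2 responses were not shown to differ (0.70, SE 0.22, adjusted p = 0.354). Jak1, the kinase most used by gp130, changed by 0.87 (SE 0.18) in E1 and -0.76 (SE 0.29) in E2, neither past the test (adjusted p = 0.0988 and 0.309). Jak2 and Tyk2 changed by -0.43 and -0.35 in E1 without passing.

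Of the 6 adaptors, Gab2, a docking protein that couples cytokine receptors to SHP2 and Ras signalling, rose in E1 and none passed in E2 (limma, 3 with an unadjusted p under 0.05). Gab2 read 1.96 to 2.24 on E1 EPO arrays, against 0.20 to 0.71 on E1 no EPO arrays, a rise of 1.56 (SE 0.13, limma adjusted p = 0.00436; 0.0880 with the block). In E2 its change was 0.17 (SE 0.070), and the E2 response was lower than the E1 response by -1.38 (adjusted p = 0.00605). Of the 3 Gab2 probe sets, 1 passed in E1, and these values are its own. Sos1, Grb2 and Ptpn11, further links of this chain, changed by 0.22, 0.21 and 0.13 in E1 without passing. Of the 5 probe sets of Sos1, 1 that did not stand for the gene was lower in E2.

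Of 14 genes known as STAT3 targets, many of which other factors also induce, 2 rose in E1 and 7 in E2. Pim1, a survival kinase, rose by 3.23 in E1 (SE 0.27, limma adjusted p = 0.0048) and by 0.95 in E2 (SE 0.062), and the E2 response was lower by -2.28 (adjusted p = 0.0181). Myc rose by 2.59 in E1 (adjusted p = 0.00852) and 3.35 in E2. With the block neither E1 rise passed (adjusted p = 0.0988 for Pim1 and 0.0899 for Myc). Vegfa and Fos changed by 1.98 and 1.89 in E1 without passing (adjusted p = 0.0772 and 0.152) and rose by 1.70 and 2.37 in E2. Pim1 and Vegfa have 2 probe sets each, of which 1 passed, for Pim1 in both stages and for Vegfa in E2. All 6 of Mcl1 passed in E2. The other E2 rises, of Junb, Ier3 and Mcl1, which were named after their values were seen, were 1.42, 0.43 and 0.67, and those of Ier3 and Mcl1 were lost without any 1 of 3 and of 4 arrays (adjusted p up to 0.0605 and 0.0704).

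None of the remaining ligands and receptors of the family passed. Of the other ligands 0 of 4 measured genes passed in either stage, with Ebi3, a subunit of IL-27 and IL-35, at 0.49 (SE 0.30) in E1 and Clcf1, Ctf1 and Il31 between -0.017 and 0.0030. Of the other receptors 0 of 3 passed, with Il31ra, a partner of Osmr in the IL-31 receptor, at -0.79 (SE 0.43) in E1, Il27ra at -0.44 (SE 0.48) and Cntfr at -0.0097. Of the proteases that shed cytokine receptors, Adam17 changed by -0.34 (SE 0.15) and Adam10 by 0.55 (SE 0.46) in E1, and neither passed in either stage. Hamp, which encodes the iron hormone hepcidin, and Twsg1 changed by 0.033 and 0.15 in E1 without passing. Erfe and Gdf15 had no value. In limma, none of these ligands, receptors, proteases and hepcidin genes had an unadjusted p under 0.05 in either stage.

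Outside the family, 0 of 16 other type I cytokine genes passed in either stage or had an unadjusted p under 0.05 in limma, with changes of -0.13 to 0.21 in E1 and -0.025 to 0.42 in E2. Il4, at 0.21 in E1 and 0.42 in E2, marked the upper end of both ranges, and Il15, Tslp and Il5 lay between -0.13 and -0.035 in E1. Of 20 other type I receptor genes none passed in E1 (Il12rb2 -0.045, Csf2rb2 0.56, Il4ra 0.38 and Csf3r -0.096, and 0 with an unadjusted p under 0.05), and 3 rose in E2. These were Il4ra (1.16, limma adjusted p = 0.0096), Csf2rb2 (0.92, adjusted p = 0.0337) and Csf2rb (1.13, adjusted p = 0.0296), the last chosen after its value was seen. Of the 3 probe sets of Il4ra, 1 passed in E2. Csf2rb and Csf2rb2 are near-identical copies whose probes may share targets, and leaving out any 1 of the 6 E2 arrays ended the Csf2rb call (adjusted p up to 0.112), as any 1 of 4 did for Csf2rb2 (up to 0.119).

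**Figure D4:**
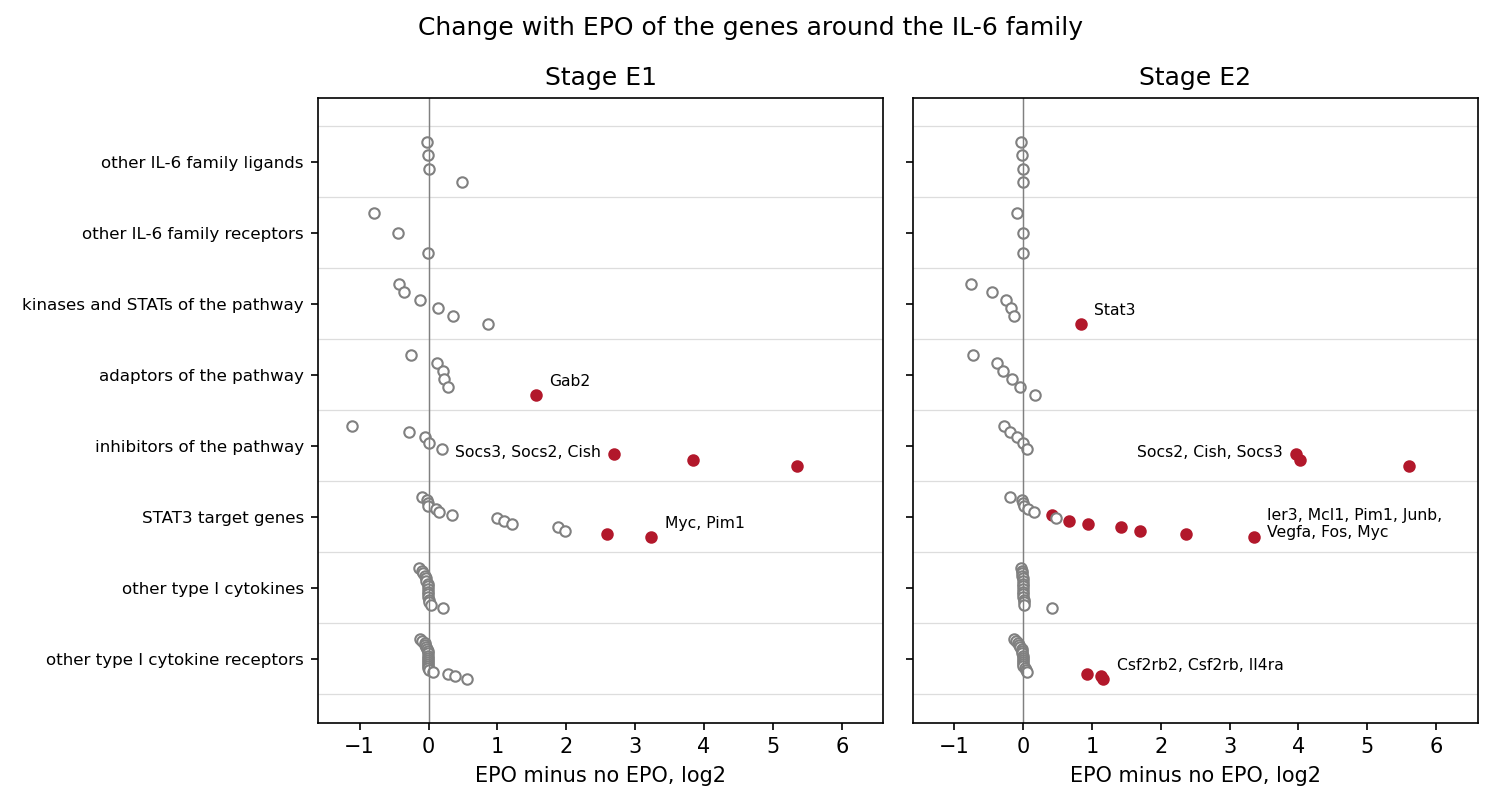
Change with EPO (EPO minus no EPO, log2, x axis) of each measured gene (points) in 8 lists (y axis) in stage E1 and stage E2; filled points passed the test and are named in rising order. The largest rise is that of Cish in E1 (5.35) and that of Socs3 in E2 (5.61), and 0 of the other family ligands and receptors passed.

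The genes whose values ran most like those of Osm were found by Pearson correlation over the 14 arrays, which share 2 stages and the presence of EPO. They were Map2k3os, named as an RNA from the strand opposite Map2k3 (r = 0.988), Spred1 (0.984), Timm9 (0.982), Socs2 (0.978) and Tnfrsf13c (0.975). Spred1 encodes an inhibitor of Ras signalling, Timm9 a mitochondrial import chaperone and Tnfrsf13c the receptor of the cytokine BAFF. Osm varies mostly with EPO, so a choice by this likeness favours genes that rise with EPO, and their changes are given as a description: in E1 2.48, 2.61, 2.31, 3.84 and 3.62 in that order, and in E2 2.30, 2.82, 2.71, 3.97 and 3.22. With the replicate block, the limma adjusted p in E1 was 0.0206 for Timm9 and 0.0516 to 0.0942 for the other 4. By Spearman correlation, which weighs order alone, the first 5 were Itpkc (0.974), Midn (0.930), Lyrm1 (0.930), Fbxw7 (0.925) and Inafm2 (0.925), and none of them was among the first 5 by Pearson.

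Osm and Lif lie next to each other on mouse chromosome 11, 16.5 kb apart in RefSeq (GRCm38.p6), which allows the response of Osm to be set beside that of its surroundings. Of the 5 annotated genes on either side, 7 had probe sets: Castor1, Tbc1d10a, Sf3a1 and Ccdc157 before it and Lif, Hormad2 and Mtmr3 after it. None of the 2 Lif probe sets and the 12 of the 6 other genes passed in either stage. Outside Lif the changes ran from -0.71 to 0.31 in E1 and from -0.58 to 0.59 in E2, with a smallest limma adjusted p of 0.302 and 0.233 and 1 unadjusted p under 0.05 in each stage. Castor1, an arginine sensor of the mTORC1 pathway 14.4 kb away, changed by -0.027 (SE 0.095) in E1 and 0.59 (SE 0.24) in E2, and Tbc1d10a, a Rab GTPase-activating protein gene, by at most 0.10 in E1. Gm11956, Gm11958 and Gm24803 had no probe set.

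**Figure D5:**
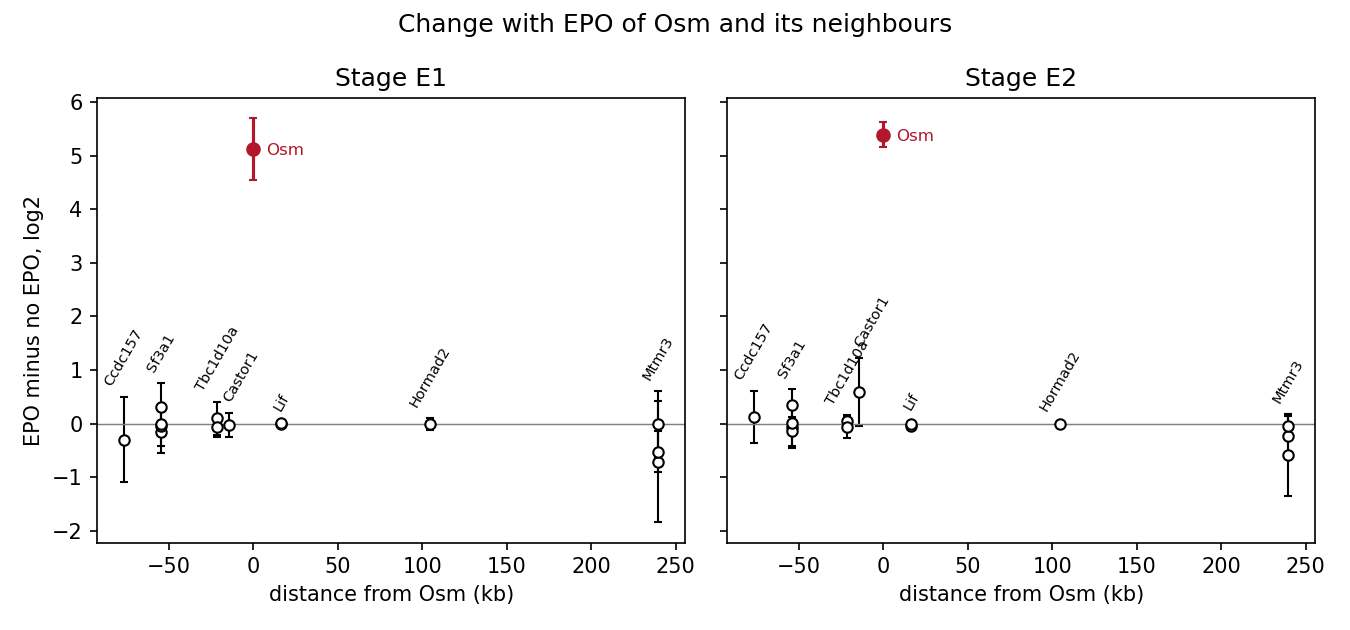
Change with EPO (EPO minus no EPO, log2, y axis) of Osm and of the probe sets of its annotated neighbours against the distance from Osm (kb, x axis) in stage E1 and stage E2; bars are 95% confidence intervals. Osm stands at 5.12 in E1 and 5.39 in E2, and 0 of the 14 neighbouring probe sets passed.

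STAT proteins bind DNA at a palindrome, TTCNNNGAA, and the promoter windows of RefSeq (GRCm38.p6; 250 bases before to 50 bases after the start) were searched for it on both strands. It was found in 2726 of 32851 windows (8.3%). Windows were at hand for 7 of the 8 members (9 windows, none for Osm), and 0 of the 9 held it. Shown here are the windows of the inhibitors with the largest rise in E1 (Cish) and in E2 (Socs3), which held it, and that of Lif, the neighbour of Osm whose probe sets did not pass, which lacked it. The palindrome is in capitals. In Cish (chr9:107296409-107296708, plus strand) it began at bases 1 and 12 from the start, as TTCCTGGAA and TTCTTGGAA. In Socs3 (chr11:117969317-117969616, minus strand) it began at base -154, as TTCTTAGAA. The Lif window is chr11:4257318-4257617 on the plus strand. The windows of Cish and Socs3 were picked by their measured rises. Among other listed genes, Stat3, Junb, Fos, Mcl1, Ier3, Pim1, Vegfa and Il4ra rose in 1 stage or both, and their windows lacked the palindrome. Gab1 (2 of 2 windows), Il31ra, Icam1, Hamp, Il4 (1 of 2 windows), Il7r and Il12rb2 held it and did not pass in either stage. Prlr held it in 1 of 3 windows and had no value. Csf2rb2, which rose in E2, also held it. A match describes these letters alone and was not tied to binding.
Cish: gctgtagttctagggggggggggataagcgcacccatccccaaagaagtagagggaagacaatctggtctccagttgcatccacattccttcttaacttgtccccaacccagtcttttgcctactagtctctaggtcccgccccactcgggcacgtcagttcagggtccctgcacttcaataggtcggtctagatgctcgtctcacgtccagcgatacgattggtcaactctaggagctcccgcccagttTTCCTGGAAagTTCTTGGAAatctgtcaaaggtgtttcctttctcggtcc
Socs3: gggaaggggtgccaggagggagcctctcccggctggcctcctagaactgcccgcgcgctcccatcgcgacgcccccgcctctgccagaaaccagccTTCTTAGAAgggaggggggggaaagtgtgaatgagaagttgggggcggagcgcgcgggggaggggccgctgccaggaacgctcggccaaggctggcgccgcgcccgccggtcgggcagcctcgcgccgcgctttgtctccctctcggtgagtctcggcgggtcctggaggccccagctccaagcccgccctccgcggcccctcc
Lif: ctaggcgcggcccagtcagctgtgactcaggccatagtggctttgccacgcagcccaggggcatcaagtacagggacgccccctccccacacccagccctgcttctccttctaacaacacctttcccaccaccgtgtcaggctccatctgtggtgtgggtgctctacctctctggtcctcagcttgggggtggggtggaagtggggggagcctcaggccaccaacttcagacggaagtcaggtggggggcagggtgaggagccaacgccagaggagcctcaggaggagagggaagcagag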

How the data were processed

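Expression was measured on 14 Affymetrix mouse arrays, 1 per sample. The authors summarised the probes with GC-RMA (named in the submitters' processing notes) in GeneSpring and deposited log2 values less 1 constant per probe set: in 35163 of 45101 probe sets (78.0%) the values next to 0 on either side were of equal size within 2e-06. The base of 2 is the usual one of GC-RMA and of the study's axes. 64 control probe sets were left out, no filter on level was possible, and 0 value columns were unused.

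Comparisons were fitted with limma 3.58.1 under R 4.3.3 (tables read with data.table, version 1.17.8) on the deposited log2 values of all 45037 probe sets, two-sided, with Benjamini-Hochberg adjustment and a threshold of 0.05. EPO was set against no EPO within each stage, and the interaction and the stages were fitted on all 14 arrays. Scripts were tested on simulated data with the arrays' own spread: most inserted changes were recovered, and the share of false calls lay above the nominal share of the threshold in every comparison, so calls near the threshold are less certain than their adjusted p states. Of the probe sets, 34945 name 1 gene, 932 several and 9160 none. The members and lists were chosen with earlier results of these data known. Named were all member probe sets, up to 4 genes a list with the smallest p in E1, the 5 genes most like Osm and its 5 neighbours on either side.

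E1 arrays sharing a replicate number had correlated deviations from their group means (r = 0.195, 0.187, 0.173 and 0.152, each over 0.1), so their numbers were read as pairs, although EPO replicate 3 was closest to no EPO replicate 4. The labels give the numbers but not what they mark. In E2 the values were -0.061, -0.057 and -0.016, and the numbers were not read as pairs. The number of arrays limits the precision: the median SD between replicates was 0.0729 with EPO and 0.0934 without in E1, and 0.0343 with EPO and 0.0317 without in E2. As no animals are named, p-values measure the spread between these samples, which may be technical. Alternatives were quantile normalization, centring on array medians, the replicate block, trended and robust variances, array weights, the more variable 50% of probe sets, all 14 arrays in 1 fit, the methods' t-test (one-tailed in the direction of each change), its two-sided form (added after seeing the data, as were the sign flips), gene means, Spearman correlation and each array left out.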

Additional observations from a re-analysis of the deposited data

Results flagged for a closer look

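In the E1 groups of 4 arrays, the highest or lowest array was compared with the gap to its nearest neighbour (Dixon's test) for the 17 member probe sets and the 5 genes most like Osm, 44 groups in all. Chance singles out about 1 in 20 groups, and 9 of the 44 had such an array. Osm had none.

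In 5 of them it was E1 EPO replicate 1: Lifr 1454984_at stood at 0.767 there (the other 3 arrays from -0.023 to 0.089), Osmr 1418675_at at 0.030, Lif 1421207_at at 0.021, Il6 1450297_at at 0.025 and Il6ra 1422270_a_at at 0.031, the last 4 against values within 0.016 of 0. In 3 it was E1 no EPO replicate 1: Osmr 1418674_at at 0.047 (the others from -0.0079 to 0.0011), Il11 1449982_at at 0.218 (-0.018 to -0.0074) and Map2k3os at -1.79 (-2.20 to -2.19). In the remaining one, Il6ra 1422270_a_at stood at 0.662 on E1 no EPO replicate 2 (-0.010 to 0.0076). The same 2 arrays, replicate 1 with and without EPO, had the highest medians over all probe sets (0.017 and 0.031, against -0.0082 to 0.0023 on the other E1 arrays). The part of these medians in the values was not tested.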

How the results depend on the processing

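The rise of Osm passed under every setting tried in E1 (18 settings, 3.71 to 5.35, adjusted p up to 0.0305) and E2 (16 settings, 5.31 to 9.45, adjusted p up to 0.0250). Without 1 array it was 4.94 to 5.33 in E1 and 5.31 to 5.49 in E2, and with the replicate block 5.12 and 5.39. In E1 the block left 1 pathway gene higher (6 in the fit without it), and in E2, where the numbers share no deviation, 6 (11). Between stages, where it matched equal numbers across E1 and E2, the block ended the Il6st call with EPO (0 lower) and no other member's call. Over all probe sets the block left 44 of 362 rises and 17 of 162 falls in E1, and 264 of 1146 and 153 of 935 in E2.

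Other counts that moved were, for pathway genes in E1, 13 higher and 4 lower by the methods' one-tailed t-test unadjusted (12 and 4 two-sided, a setting chosen after seeing the data), and 2 lower with array weights, 1 with the more variable 50% of probe sets and 2 with all 14 arrays in 1 fit. In E2 they were 7 lower by the same one-tailed test (with 2 member probe sets lower, of Lif and Il6), 5 two-sided (0 members), 1 with array weights, 2 by gene means and 0 to 1 without 1 array. Over all probe sets the one-tailed test, applied in both directions, gave 2824 rises and 2370 falls in E1 and 4100 and 5639 in E2, and the two-sided one 1951 and 1460 in E1 and 3045 and 3609 in E2. Without 1 array, limma gave the fewest calls in E1 without EPO replicate 3 (150 rises and 55 falls) and in E2 without no EPO replicate 2 (504 and 330).

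Quantile normalization called Osm in the difference of responses (5.73, 1 member higher) and between stages with EPO (2.73, 1 higher and 0 lower), and without EPO reversed it (-3.0, 1 lower). This setting was run on values already centred per probe set and stretches E2 arrays, whose centred values spread less. Its values and adjusted p between stages carry that stretch. Between stages with EPO, array weights gave 2 members higher and 4 lower (Osm 0.59). The more variable probe sets gave 1 higher and 0 lower (Osm 0.60), and Il6st 1437303_at was not among them. Centring on medians gave 0 lower, and leaving out 1 array 0 to 1 higher and 0 to 1 lower (Osm 0.52 to 0.69). Without EPO, array weights gave 1 higher and 1 lower (Osm 0.48), and leaving out 1 array 0 to 1 higher (Osm 0.15 to 0.54). The causes of the other changes were not tested. Over all probe sets the difference of responses counted 20 to 949 higher and 24 to 769 lower (39 to 114 and 51 to 217 without 1 array), and array weights raised the lower counts between stages to 12964 with EPO and 7962 without (5405 and 4872), and leaving out E1 no EPO replicate 1 gave 9682 with EPO.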
